A study of Mus musculus with 8 samples.

Results

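Expression of 10 dendritic cell lineage genes was compared between lungs with stabilized beta-catenin and lungs with beta-catenin knocked out. The genes were chosen by name: Flt3, Irf8, Batf3, Zbtb46, Clec9a, Cd209a, Siglech, Itgae, Itgax and Fscn1. All 10 were found among 19937 genes, each gene being taken from a probe set annotated with exactly 1 gene symbol, and each of the 10 had 1 such probe set. Total RNA from whole, untreated lungs of mice at postnatal day 21 was hybridised to 8 Affymetrix arrays, 4 from the group labelled beta-catenin stabilized and 4 from the group labelled beta-catenin knockout, 1 array per biological replicate. Beta-catenin carries canonical Wnt signals to the nucleus and also links cadherins to the cytoskeleton; its stabilized form is not degraded in the usual way. The sources used here name no Cre driver and no altered exons, so which lung cells carried an allele is not known here. Unmodified lungs were not analysed here, and every result below is a comparison of the 2 altered groups with each other.

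Dendritic cells take up antigen in peripheral tissue and carry it to lymph nodes, where they present it to T cells. They arise from bone marrow precursors that respond to Flt3 ligand, and fall into conventional type 1 cells (cDC1), which depend on IRF8 and BATF3 and cross-present antigen to CD8+ T cells, conventional type 2 cells (cDC2), which depend largely on IRF4, and plasmacytoid cells (pDC), which depend on the transcription factor encoded by Tcf4 and make type I interferon. In mouse lung, cDC1 carry the integrin chain CD103 (Itgae) and lie in and under the airway epithelium. Few of the 10 genes are exclusive to dendritic cells: alveolar macrophages carry much CD11c (Itgax), some T cells carry CD103, B cells express Irf8, and endothelium expresses Zbtb46 and Fscn1.

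Values are log2 expression, so a difference of 1 is a doubling. Each difference is the stabilized mean minus the knockout mean, with its moderated SE from limma. Genes with a limma adjusted p (Benjamini-Hochberg over all 19937 genes) under 0.05 are called. By this rule 9.62% of all genes were called, 4.96% lower and 4.65% higher in stabilized lungs. Of the called genes 48.4% were higher, or 64.4% once the arrays had been centred on their medians. Correlations between arrays over all genes were 0.993 to 0.996 within a group and 0.987 to 0.993 between groups. The labels describe all mice as male, but in stabilized replicates 1 and 4 and knockout replicates 1 and 3 Xist, the transcript of the inactive X chromosome, lay between 10.36 and 10.59 and the Y-linked genes between 3.08 and 4.00, whereas in the other 4 arrays Xist lay between 4.18 and 4.62 and the Y-linked genes between 6.71 and 8.35. Each group held 2 arrays of either pattern. The called genes among the 10 are therefore also given within each pattern, as are the other named genes that moved most. For the rest of the 10, a value within a pattern is given only where the sign turned. Nothing in the sources says which mice were littermates, and p-values measure the spread between these 8 lungs.

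Of the 10 genes, 5 were lower in stabilized lungs, 0 were higher and 5 did not pass the test. By unadjusted p under 0.05 in limma, the count was 6, Fscn1 being the sixth, in the higher direction. At that threshold 4923 of all 19937 genes passed. Clec9a, a receptor for dead cells on cDC1, was 1.80-fold lower. Cd209a, a lectin of monocyte-derived dendritic cells and cDC2, was 1.53-fold lower, the transcription factor gene Irf8 was 1.43-fold lower, the integrin gene Itgae was 1.41-fold lower and the growth factor receptor gene Flt3 was 1.40-fold lower. Batf3, Zbtb46, Siglech, Itgax and Fscn1 did not pass, although several of these mark the same cells. The median difference of the 10 genes was -0.30, against -0.01 over all genes. All 4 stabilized arrays lay below all 4 knockout arrays in the same 5 genes, a pattern that 7.82% of all genes showed; none of the 10 had the reverse pattern, which 9.06% of all genes showed. In bulk tissue, fewer cells of a type and less RNA per cell cannot be told apart.

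**Figure D1:**
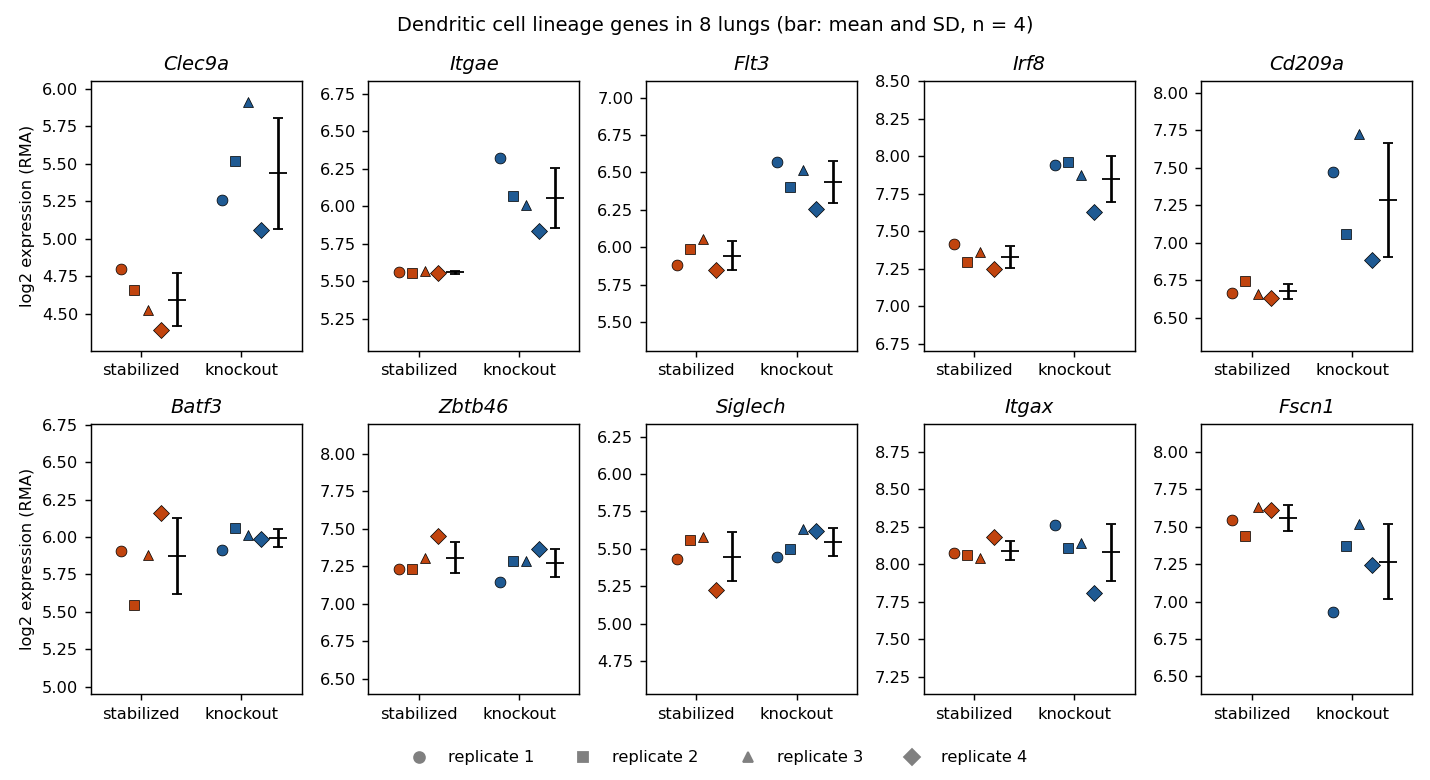
Log2 expression (RMA) of the 10 genes, 1 panel per gene, 1 point per array, with marker shapes for replicates 1 to 4 and a bar for the mean and SD of each group (n = 4). Every panel spans the same height in log2 units. The upper row holds the 5 genes in which the groups do not overlap, and the lower row the 5 in which they do.

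To show the promoters of called genes beside one that did not pass, the 250 bases before the RefSeq start site (mouse build GRCm38.p6) are printed below, 5' to 3' on the gene's strand, for Clec9a, Flt3, Irf8, Cd209a and Itgax. The table held an entry for 9 of the 10 genes, all but Itgae. Capitals mark a match to TGANTCA, the AP-1 core to which BATF family dimers with JUN bind. It was the only searched motif found in any of the 5 printed windows.
Clec9a, chr6:129408612-129408861, plus strand: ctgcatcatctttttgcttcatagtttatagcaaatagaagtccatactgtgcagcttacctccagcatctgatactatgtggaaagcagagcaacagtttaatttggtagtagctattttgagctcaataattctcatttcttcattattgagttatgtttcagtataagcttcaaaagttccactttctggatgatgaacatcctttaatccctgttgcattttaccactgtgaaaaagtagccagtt
Flt3, chr5:147400490-147400739, minus strand: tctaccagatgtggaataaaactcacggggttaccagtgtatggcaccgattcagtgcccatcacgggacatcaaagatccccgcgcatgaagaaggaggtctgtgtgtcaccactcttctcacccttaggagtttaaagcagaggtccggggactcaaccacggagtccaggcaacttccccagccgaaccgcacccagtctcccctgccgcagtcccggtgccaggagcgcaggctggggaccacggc
Irf8, chr8:120736108-120736357, plus strand: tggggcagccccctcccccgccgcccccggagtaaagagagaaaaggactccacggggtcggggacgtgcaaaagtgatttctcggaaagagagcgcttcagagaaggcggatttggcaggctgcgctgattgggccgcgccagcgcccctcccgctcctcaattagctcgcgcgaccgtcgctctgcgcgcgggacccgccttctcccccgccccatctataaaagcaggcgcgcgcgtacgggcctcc
Cd209a, chr8:3748985-3749234, minus strand: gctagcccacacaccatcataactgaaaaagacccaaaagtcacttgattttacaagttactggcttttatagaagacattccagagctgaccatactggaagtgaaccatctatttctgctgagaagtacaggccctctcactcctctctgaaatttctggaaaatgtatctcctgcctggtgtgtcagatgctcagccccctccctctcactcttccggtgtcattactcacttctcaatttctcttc
Itgax, chr7:128129300-128129549, plus strand: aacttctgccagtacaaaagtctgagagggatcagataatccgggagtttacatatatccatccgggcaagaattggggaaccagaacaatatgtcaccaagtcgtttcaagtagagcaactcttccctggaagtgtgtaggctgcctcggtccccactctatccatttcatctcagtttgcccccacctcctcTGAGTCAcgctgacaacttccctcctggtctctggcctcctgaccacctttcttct
Both strands were searched. The AP-1 core occurred in Itgax, 56 to 50 bases before the start, and in Zbtb46, 61 to 55 bases before it, among 9 genes, and in 6.73% of 32536 distinct promoter windows of this length. The paired GAAA site of interferon regulatory factors (GAAA, any 2 bases, GAAA) occurred in 2.98% of all windows and in none of these genes. The composite site of PU.1 with IRF4 or IRF8 (GGAA, any 2 bases, GAAA) was in 2.31% of windows, the composite site of BATF with IRF4 or IRF8 (TTTC, any 4 bases, TGANTCA, which contains the AP-1 core) in 0.1% and the PU.1 site GAGGAAGT in 2.45%, and likewise in none of these genes. CACCTG, a box of E proteins (17.29% of windows), occurred in Zbtb46, Siglech and the window of a further Irf8 start site. The windows ranged in GC content from 35.6% for Clec9a to 76.0% for Batf3, with a median of 52.4% over all promoters. A match is a run of letters and not a shown binding site, and distal enhancers were not examined.

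Flt3 encodes the receptor tyrosine kinase through which Flt3 ligand drives dendritic cell formation. Stabilized replicates 1 to 4 gave log2 values of 5.89, 5.99, 6.06 and 5.85, and knockout replicates 1 to 4 gave 6.57, 6.40, 6.51 and 6.25. The highest stabilized array lay 0.19 below the lowest knockout array. The difference was -0.49 ± 0.08 (SE, n = 4 per group, limma adjusted p = 0.0022), and it was called with each array left out in turn (highest adjusted p = 0.011). The gene of its ligand, Flt3l, was also lower, with a stabilized mean of 7.93 ± 0.08 and a knockout mean of 8.28 ± 0.15 (SD, n = 4), a difference of -0.35 ± 0.08 (SE, limma adjusted p = 0.016). Its stabilized arrays lay between 7.82 and 8.01 and its knockout arrays between 8.15 and 8.49, without overlap. The call of Flt3l was lost in the fit over all probe sets (limma adjusted p = 0.054).

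Irf8 encodes a transcription factor needed for cDC1 and also active in monocytes and B cells. Stabilized replicates 1 to 4 lay at 7.41, 7.29, 7.36 and 7.25, while knockout replicates 1 to 4 lay at 7.94, 7.96, 7.87 and 7.63. Knockout replicate 4 stood below the other 3 knockout arrays but 0.21 above the highest stabilized array. The difference was -0.52 ± 0.08 (SE, n = 4 per group, limma adjusted p = 0.0016), and the highest adjusted p with 1 array left out was 0.0072.

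Batf3, the AP-1 family partner of IRF8 in cDC1, did not pass the test. It lay at 5.91, 5.54, 5.88 and 6.16 in stabilized and at 5.91, 6.06, 6.01 and 5.98 in knockout replicates 1 to 4. The stabilized arrays held both the lowest and the highest value and spread over 0.62, against 0.15 in knockout lungs. The difference was -0.12 with a 95% interval of -0.35 to 0.11 (limma adjusted p = 0.53). Zbtb46, a transcription factor of conventional dendritic cells and of endothelium, lay at 7.23, 7.23, 7.31 and 7.45 in stabilized and at 7.14, 7.29, 7.29 and 7.37 in knockout replicates 1 to 4. The groups overlapped, with knockout replicate 1 the lowest array and stabilized replicate 4 the highest, and the difference was 0.04 with an interval of -0.12 to 0.19 (limma adjusted p = 0.81). The sign of this difference turned without stabilized replicate 4 (-0.013) or knockout replicate 1 (-0.0067).

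Clec9a encodes DNGR-1, a C-type lectin that recognises actin of dead cells and marks cDC1. It lay at 4.798, 4.66, 4.52 and 4.39 in stabilized and at 5.26, 5.52, 5.92 and 5.06 in knockout replicates 1 to 4. The highest stabilized array was 0.26 below the lowest knockout array, and the knockout arrays spread over 0.86 against 0.41 in stabilized lungs. The difference was -0.84 ± 0.15 (SE, n = 4 per group, limma adjusted p = 0.0042). It was the largest of the 10, and with 1 array left out in turn it ranged from -0.97 to -0.68, always past the threshold. The mean level of Clec9a over all arrays was low, at the 26.5th percentile of all genes.

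Cd209a encodes a DC-SIGN type lectin that binds sugars on microbes. It lay at 6.66, 6.75, 6.66 and 6.63 in stabilized and at 7.47, 7.06, 7.72 and 6.88 in knockout replicates 1 to 4. The stabilized arrays spread over 0.11 and the knockout arrays over 0.84, with knockout replicates 1 and 3 highest. The difference was -0.61 ± 0.15 (SE, n = 4 per group, limma adjusted p = 0.020). Its call was the least stable of the 5: the adjusted p was 0.055 without stabilized replicate 1, 0.056 without knockout replicate 1 and 0.082 in a fit over all probe sets of the array. Among 6 other genes of the Cd209 family, looked up after the values were seen, Cd209b and Cd209c fell by 0.56 ± 0.12 and 0.65 ± 0.11 (SE, n = 4 per group) and 4 did not pass. These are similar genes whose probes may not fully tell each other apart.

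Siglech, a sialic acid binding receptor of pDC, did not pass. It lay at 5.43, 5.56, 5.58 and 5.23 in stabilized and at 5.44, 5.50, 5.64 and 5.62 in knockout replicates 1 to 4. Stabilized replicate 4 was the lowest array, and the other 3 stabilized arrays lay beside the knockout values. The difference was -0.10 with a 95% interval of -0.28 to 0.09 (limma adjusted p = 0.51).

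Itgae encodes the alpha chain of CD103, which pairs with the beta 7 chain and binds E-cadherin on epithelium. It lay at 5.56, 5.55, 5.57 and 5.55 in stabilized and at 6.32, 6.07, 6.01 and 5.83 in knockout replicates 1 to 4. The stabilized arrays spread over 0.018 and the knockout arrays over 0.48, and the groups were 0.26 apart at their nearest. Its mean level over all arrays lay at the 39.5th percentile of all genes. The difference was -0.50 ± 0.09 (SE, n = 4 per group, limma adjusted p = 0.0037), called with each array left out (highest adjusted p = 0.013). Genes of its partner chain and ligand were looked up after the values were seen. Itgb7, the beta chain, fell by 0.60 ± 0.13 (SE, n = 4 per group, limma adjusted p = 0.013), and Cdh1, which encodes E-cadherin, differed by -0.01 ± 0.06 (SE, limma adjusted p = 0.97).

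Itgax encodes CD11c, an integrin chain of dendritic cells that is also abundant on alveolar macrophages. It lay at 8.07, 8.06, 8.04 and 8.18 in stabilized and at 8.26, 8.11, 8.14 and 7.81 in knockout replicates 1 to 4, where the knockout arrays held both the highest and the lowest value. The difference was 0.01 with a 95% interval of -0.18 to 0.21 (limma adjusted p = 0.96), and its sign turned without stabilized replicate 4 (-0.020), without knockout replicate 4 (-0.079) and after repeated quantile normalization (-0.042). The gene of its partner chain, Itgb2, shared by other leukocyte integrins, differed by 0.0026 ± 0.095 (SE, n = 4 per group, limma adjusted p = 0.99). Itgb2 belongs to the pan-leukocyte list described below, but was singled out here after the values were seen. A further 4 alpha chain genes were looked up after the values were seen. Of these 4, Itgal and Itga4, both prominent on lymphocytes, fell by 0.41 ± 0.10 and 0.56 ± 0.12 (SE), and Itgam and Itgad did not pass.

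Fscn1 encodes fascin, the actin-bundling protein of mature, migrating dendritic cells and of several other cell types. It lay at 7.55, 7.44, 7.63 and 7.61 in stabilized and at 6.93, 7.37, 7.52 and 7.25 in knockout replicates 1 to 4. The stabilized arrays were high and close together, and knockout replicate 3 lay among them. The difference of 0.29 ± 0.11 (SE, n = 4 per group) went the other way from the called genes and did not pass (limma adjusted p = 0.12).

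**Figure D2:**
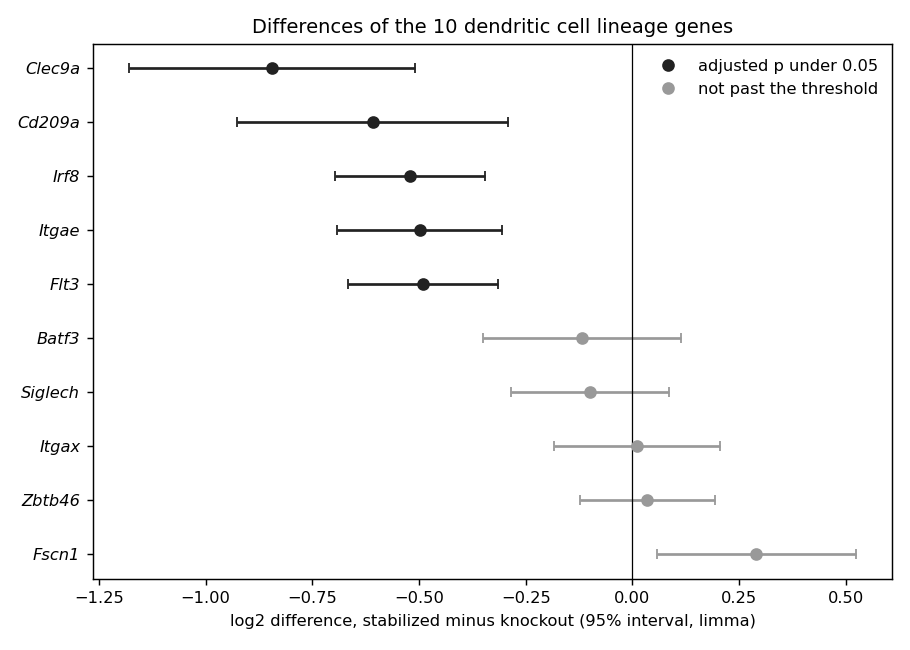
Log2 differences of the 10 genes, stabilized minus knockout, with 95% intervals from limma (4 arrays per group). Dark points passed an adjusted p of 0.05 and grey points did not. The 5 called genes lie between -0.84 and -0.49, and the intervals of Batf3, Siglech, Itgax and Zbtb46 include 0.

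No single order of the arrays ran through the 10 genes. Knockout replicate 4 was the lowest knockout array for 6 genes and knockout replicate 3 the highest for 4. In stabilized lungs replicate 4 was lowest for 6 genes and highest for 3. The 5 called genes did share their lowest arrays. In each of them replicate 4 was the lowest array of its group, in stabilized and in knockout lungs. The SD was smaller in stabilized than in knockout lungs for 7 of the 10 genes, the 5 called genes with Itgax and Fscn1. Over all genes, 43.7% had the smaller SD in stabilized lungs.

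Within the arrays that had the Y-linked genes high, 2 per group, the differences were -0.70 for Clec9a, -0.39 for Itgae, -0.30 for Flt3, -0.46 for Irf8 and -0.27 for Cd209a. In limma 0 of the 10 genes were called there (lowest adjusted p 0.069), against 354 of all genes. By unadjusted p under 0.05 in limma, the counts were 6 of the 10 and 2744 of 19937. Within the arrays that had Xist high, 2 per group, the differences were -0.99, -0.61, -0.68, -0.58 and -0.95 in the same order. All but Clec9a (limma adjusted p = 0.057) were called, against 670 of all genes. The counts by unadjusted p under 0.05 in limma were 5 of the 10 and 3272 of 19937. The 5 genes called over all arrays were lower in stabilized lungs under both patterns. That adds no support, since their groups do not overlap and every such subset must give the same sign. Cd209a differed most between the patterns, by -0.68 ± 0.16 (SE, Xist high minus Y-linked high). That difference had an unadjusted p of 0.0014 and a limma adjusted p of 0.995, and 0 of 19937 genes passed this test of the difference in limma, with 841 at an unadjusted p under 0.05.

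Other genes of the dendritic cell programs were counted in 5 lists, which together held 81 measured genes beside the 10. Of these 81, 18 were lower, 6 higher and 57 did not pass, with a median difference of -0.13. Among 12 measured partners of cDC1, Wdfy4, which is needed for cross-presentation, fell by 0.63 ± 0.11 (SE, n = 4 per group, limma adjusted p = 0.0032), with stabilized arrays at 7.90 to 8.16 and knockout arrays at 8.28 to 8.87. The lipid amidase gene Naaa fell by 0.38 ± 0.10 (SE), a call that, when 1 array was left out, held only without stabilized replicate 3 or knockout replicate 4 (highest limma adjusted p = 0.099), and 10 did not pass. Xcr1, the chemokine receptor of cDC1, was at 5.84, 5.92, 5.81 and 6.08 in stabilized and 6.52, 6.43, 6.35 and 5.82 in knockout replicates 1 to 4. Knockout replicate 4 alone lay in the stabilized range, and the difference was -0.37 ± 0.13 (SE, limma adjusted p = 0.10). When 1 array was left out, Xcr1 was called only without knockout replicate 4 (limma adjusted p = 0.0024). The highest limma adjusted p among these fits was 0.22. Gcsam differed by -0.24 ± 0.07 (SE, limma adjusted p = 0.065).

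The 13 measured partners of cDC2 went both ways. Notch2, a receptor that shapes part of the cDC2 lineage and is expressed in many lung cells, fell by 0.37 ± 0.06 and Cd7 fell by 0.44 ± 0.09 (SE, n = 4 per group). The inhibitory receptor genes Cd33 and Clec12a, which are also expressed by granulocytes and monocytes, rose by 0.35 ± 0.07 and 0.35 ± 0.09 (SE), Clec10a and Clec4a2 rose as well, and 7 did not pass. When 1 array was left out, Clec12a was called only without stabilized replicate 1 or 2 or knockout replicate 4 (highest limma adjusted p = 0.070). Irf4, the transcription factor of cDC2, differed by -0.22 ± 0.10 (SE, limma adjusted p = 0.22). The median of this list was 0.08.

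Of 16 measured partners of pDC, 5 fell and 11 did not pass, with a median of -0.20. Spib, an ETS factor of pDC and B cells, lay at 4.87 to 5.39 in stabilized against 6.28 to 7.13 in knockout arrays and fell by 1.51 ± 0.17 (SE, n = 4 per group, limma adjusted p = 1.7e-04). Ly6d, a surface protein of lymphoid and pDC precursors, fell by 1.08 ± 0.08, Smim5 by 0.65 ± 0.11 and Bst2, an interferon-induced tetherin, by 0.49 ± 0.10 (SE). The remaining call was Ccr9. Tcf4, which encodes the transcription factor that specifies pDC and is expressed in many other cells, differed by 0.05 ± 0.06 (SE, limma adjusted p = 0.64) and turned in sign after repeated quantile normalization (-0.015). The called genes of this list include B cell and interferon-induced genes, while Siglech, described above, and Tcf4 did not pass.

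Of 19 measured genes of mature dendritic cells, 5 fell and 14 did not pass, with a median of -0.07. Ccr7, the receptor that guides dendritic cells and naive lymphocytes to lymph nodes, lay at 5.996 to 6.31 in stabilized and 6.83 to 7.35 in knockout lungs and fell by 1.00 ± 0.11 (SE, n = 4 per group, limma adjusted p = 1.3e-04). Ccl5, a chemokine that T and NK cells make in quantity, fell by 1.95 ± 0.16 and Samsn1, an adaptor of lymphoid and myeloid cells, by 0.40 ± 0.08 (SE). Ccl22, a chemokine of mature dendritic cells, fell by 0.53 ± 0.14 (SE), a call that held only without stabilized replicate 3 or 4 or knockout replicate 4 when 1 array was left out (highest limma adjusted p = 0.10), and the last call was Apol7c. Among 21 measured genes of growth factors, regulators and class II antigen presentation, 4 fell, 2 rose and 15 did not pass, with a median of -0.13. Those that fell were H2-Ob and H2-Oa, which form the class II peptide-loading modulator found mainly in B cells and some dendritic cells (1.06 ± 0.10 and 0.73 ± 0.08, SE), the lymphoid regulator Ikzf1 (0.85 ± 0.14, SE) and Flt3l. Csf2, which encodes the growth factor GM-CSF, and Csf2rb, a chain of its receptor, rose by 0.35 ± 0.08 and 0.36 ± 0.10 (SE, limma adjusted p of 0.012 and 0.047).

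**Figure D3:**
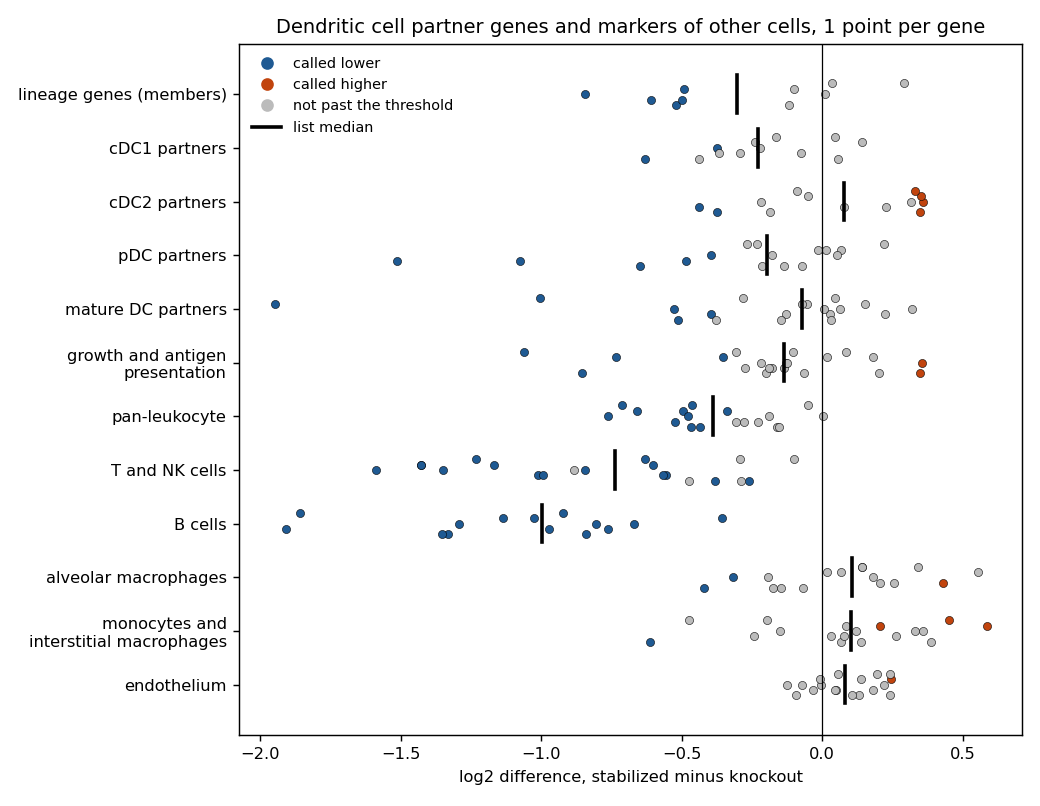
Log2 differences, stabilized minus knockout, of the 10 lineage genes, 5 lists of dendritic cell partner genes and 6 lists of markers of other cells, with 1 point per gene, coloured by its limma call, and a black line at each list's median. The B cell list has all 14 points among the lower calls, while the medians of the macrophage, monocyte and endothelial lists lie just above 0.

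Markers of other cells that express some of the 10 genes moved beside them. All 14 measured B cell markers fell, with a median of -0.999, and their mean log2 level was 5.43 to 5.54 in stabilized and 6.34 to 6.69 in knockout arrays. The B cell receptor chain genes Cd79a and Cd79b fell by 1.86 ± 0.12 and 1.35 ± 0.09, the scaffold gene Bank1 fell by 1.33 ± 0.07 and the complement receptor gene Cr2 by 0.97 ± 0.07 (SE, n = 4 per group). Of 20 measured T and NK cell markers 15 fell and 5 did not pass, with a median of -0.74 and mean levels of 5.57 to 5.86 against 6.21 to 6.86. Cd8a and Cd8b1, the CD8 co-receptor chains, fell by 1.59 ± 0.19 and 1.43 ± 0.19, Il7r by 1.43 ± 0.11 and Klrd1 by 1.23 ± 0.14 (SE). Some CD8+ T cells carry CD103, and B cells express Irf8. The part of these cells in the differences of Itgae and Irf8 was not tested.

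Markers common to all leukocytes were lower as well. Of 18 measured, 10 fell and 8 did not pass, with a median of -0.39 and mean levels of 8.26 to 8.44 in stabilized and 8.45 to 8.94 in knockout arrays. Coro1a, an actin regulator, fell by 0.71 ± 0.12, Cd52 fell by 0.76 ± 0.17, Rac2 by 0.66 ± 0.15 and Lsp1 by 0.47 ± 0.11 (SE, n = 4 per group), and the calls of Cd52, Rac2 and Lsp1 were lost without stabilized replicate 2 or knockout replicate 3. In the fit over all probe sets, only 1 of the 18 was called. Ptprc, which encodes CD45, was lower at 8.88 ± 0.11 against 9.36 ± 0.28 (SD, n = 4, limma adjusted p = 0.025), a call lost without stabilized replicate 1 or 4 or knockout replicate 1 or 3 (highest limma adjusted p = 0.080). Knockout replicate 4, the lowest knockout array for 6 of the 10 lineage genes, also had the lowest knockout mean of the pan-leukocyte list (8.45), of the T and NK cell list (6.21) and of the B cell list (6.34). The same held for every dendritic cell partner list, for alveolar macrophages (7.69) and for monocytes and interstitial macrophages (7.70). For the endothelial list this array had the highest knockout mean (9.97).

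Lists of macrophages, monocytes and endothelium moved less. Of 16 measured alveolar macrophage markers 2 fell, 1 rose and 13 did not pass, with mean levels of 7.72 to 7.91 in stabilized and 7.69 to 7.82 in knockout arrays. The mannose receptor gene Mrc1 rose by 0.43 ± 0.09, Cidec fell by 0.42 ± 0.09 and Plet1 fell by 0.32 ± 0.09 (SE, n = 4 per group), the last being called only without stabilized replicate 3 or knockout replicate 4 when 1 array was left out (highest limma adjusted p = 0.14), and Il18 differed by 0.56 ± 0.18 (SE, limma adjusted p = 0.075). Of 18 measured monocyte and interstitial macrophage markers 3 rose, 1 fell and 14 did not pass, with means of 7.91 to 8.01 and 7.70 to 7.94. The complement genes C1qa and C1qb rose by 0.59 ± 0.08 and 0.45 ± 0.08 and Lyz2 by 0.21 ± 0.06, while Plac8 fell by 0.61 ± 0.15 (SE). When 1 array was left out, Lyz2 was called only without stabilized replicate 4 (highest limma adjusted p = 0.12) and Plac8 only without stabilized replicate 3 or knockout replicate 2 or 4 (highest 0.071). Of 18 endothelial markers only Esam rose (0.24 ± 0.07, SE), a call that held only without knockout replicate 4 when 1 array was left out (highest limma adjusted p = 0.11), and 17 did not pass, with means of 9.997 to 10.03 against 9.88 to 9.97. Itgax and Zbtb46, which these cells share with dendritic cells, were among the genes that did not pass.

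**Figure D4:**
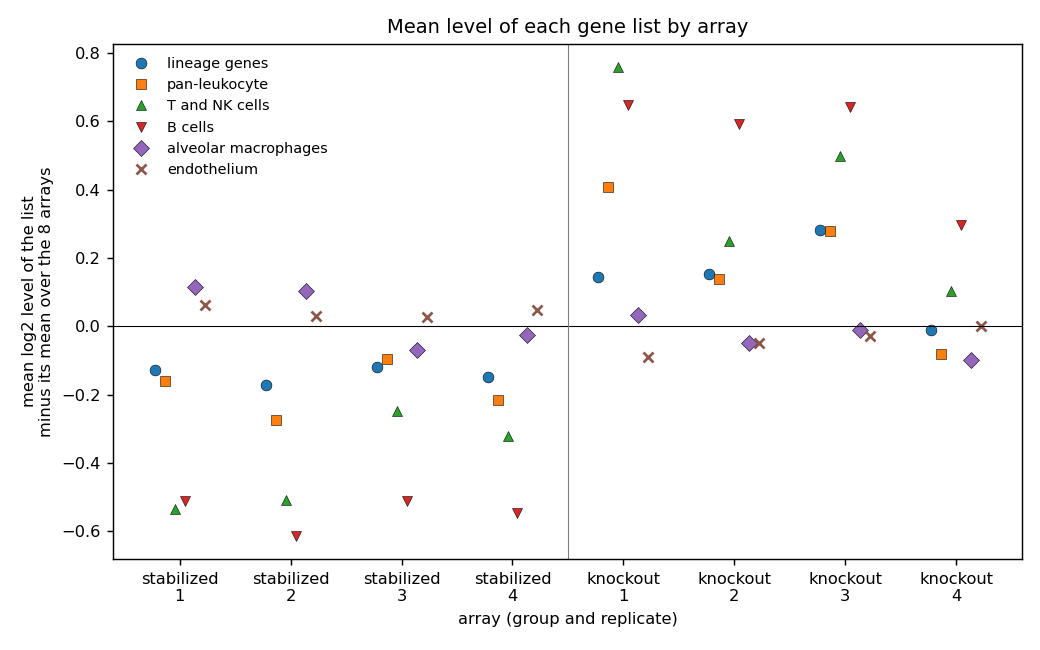
Mean log2 level of each gene list in each array, as the difference from that list's mean over the 8 arrays. The lineage genes, pan-leukocyte, T and NK cell and B cell lists are higher in the knockout arrays, least so in knockout replicate 4, while the alveolar macrophage list overlaps between the groups and the endothelial list is slightly lower in the knockout arrays.

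The partner, marker and nearest-profile genes named here include 55 called genes beside the lineage genes. All 55 had the same sign within both sex-linked patterns. For most of them the groups do not overlap, so that sign was fixed in advance and adds no support. For 18 of the 55 the difference moved by more than 1.5 times within a pattern. Cd52 differed by -0.29 in the arrays with Y-linked genes high and by -1.24 in those with Xist high, and Ptprc by -0.19 and -0.77. Ikzf1 differed by -0.51 and -1.20 in the same order, Plac8 by -0.28 and -0.95, Rac2 by -0.34 and -0.98, and Cd8b1 by -0.95 and -1.91. The others were Naaa, Samsn1, Csf2, Plet1, Esam, Lsp1, Fam81b, Prkcq, Crybg1, Cd209b, Cd28 and Tnni3, and of the 18 only Csf2 was smaller with Xist high. In the fit over all probe sets 16 of the 55 lost their call, at limma adjusted p of 0.051 to 0.12. These were Flt3l, Naaa, Clec12a, Ccl22, Cidec, Plet1, Plac8, Lyz2, Esam, Cd52, Rac2, Lsp1, Ptprc, Prkcq, Cd209b and Tnni3. Clec10a, Clec4a2, Ccr9, Apol7c and Csf2rb, named above to complete counts of calls, are not among the 55. They lost their calls in that fit as well.

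Relatives of several of the 10 genes, looked up after the values were seen, moved in part. Of 6 other interferon regulatory factor genes only Irf7, itself interferon-induced, fell (0.50 ± 0.14, SE, limma adjusted p = 0.040). The paralogs Batf and Batf2, like Batf3, did not pass, at 0.08 ± 0.07 and -0.07 ± 0.08 (SE). Of 6 other lectin genes of the chromosome region of Clec9a, Clec7a, the beta-glucan receptor of myeloid cells, rose by 0.83 ± 0.13 (SE, limma adjusted p = 0.0013), opposite to Clec9a, and 5 did not pass. Of 4 other Siglec genes, Siglecg, a receptor of B cells, fell by 0.65 ± 0.12 (SE, limma adjusted p = 0.0051) and 3 did not pass.

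For each called gene the 3 genes with the most similar profile were taken, by the smallest root mean square distance between log2 profiles over the 8 arrays after subtracting each gene's mean. The nearest to Clec9a were Ros1, Apobec3 and the interleukin-18 receptor chain gene Il18rap, at distances of 0.16, 0.16 and 0.18. The nearest to Flt3 were Dgka, Crybg1 and Slfn2, at 0.051, 0.060 and 0.065. Those nearest to Irf8 were Slc9a7, Ccdc88c and Maats1, at 0.049, 0.069 and 0.071. Itgae was closest to 4430402I18Rik, Fam81b and Prkcq, the kinase of T cell receptor signalling, at 0.060, 0.064 and 0.067. Cd209a was closest to its own relative Cd209b, to the T cell co-stimulator gene Cd28 and to Tnni3, the cardiac troponin I gene, at 0.084, 0.10 and 0.12. All 15 genes were called lower (limma adjusted p of 0.017 or below), and since the profiles were matched over both groups, that direction follows from the choice.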

How the data were processed

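The authors deposited a table of log2 expression for 34760 probe sets on 8 arrays, and the submitters' processing notes list RMA and affy without versions. RMA subtracts background, equalises the array distributions and summarises probes, so background left in dim probe sets can compress differences, and a change in total RNA would not show. Arrays carry no read depth, and 4 arrays per group limit the precision. Of the probe sets, 21640 had 1 gene symbol in the platform annotation, and the one with the highest mean over the 8 arrays stood for its gene. The 10 genes and all lists were chosen with earlier results of these data known.

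All genes were fitted with limma 3.58.1 (R 4.3.3; lmFit, eBayes, no covariate, no filter). Named were the 10 genes, up to 4 genes with the smallest p per list, Ptprc, Xcr1, Irf4, Tcf4, Ccr7 and Flt3l whatever their values, and the 3 nearest profiles of each called gene; others are marked as looked up later or complete a count of calls. Written list entries that were not matched were not analysed here. On simulated data for this comparison over 19937 genes, the fit recovered 68% of 100 genes with a log2 change of 0.5 and 98% of 100 with a change of 1, with 9 unchanged genes called. No other genes were changed in the simulation, whereas 9.62% of genes were called in the real data. Its noise was normal and independent between genes and arrays, so recovery in the real data can differ. Replicate numbers were not treated as pairs, since nothing in the sources says that they pair mice. Same-numbered arrays correlated at -0.01 to 0.08 in their deviations from the group means. That cannot decide the question, since same-numbered replicates 3 and 4 had opposite sex-linked patterns in the 2 groups. Promoter windows come from RefSeq, build GRCm38.p6, and no probe coordinates were used. Alternatives covered scaling, filter, probe set choice, prior, replicate block, Xist covariate, an exact permutation test and each array left out; the fits within each sex-linked pattern were added after seeing the data.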

Additional observations from a re-analysis of the deposited data

Results flagged for a closer look

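In 9 of 146 sets of 4 arrays (1 gene in 1 group) among the named genes, 1 array stood apart from the other 3 of its group by Dixon's test; chance flags about 1 in 20 such sets, and none of the 9 was one of the 10 lineage genes. The low arrays were stabilized replicate 2 for Smim5 (4.96, others 5.39 to 5.47), stabilized replicate 1 for Klrd1 (4.596, others 4.81 to 4.84), stabilized replicate 4 for Cd79a (5.07, others 5.48 to 5.54) and for Prkcq (6.55, others 6.65 to 6.67), and knockout replicate 4 for Slc9a7 (6.93, others 7.14 to 7.16). The high arrays were knockout replicate 3 for C1qa (7.30, others 7.17 to 7.19), stabilized replicate 3 for C1qa (8.05, others 7.69 to 7.73) and for Cd52 (7.79, others 7.39 to 7.45), and stabilized replicate 2 for Tcf4 (9.70, others 9.54 to 9.57).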

How the results depend on the processing

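Clec9a, Itgae, Flt3 and Irf8 were called lower in all 8 fits that left out 1 array and in each change of scaling, filter, probe set choice, prior or covariate that tested them, and Cd209a in all but 3 of these fits. With genes below the median level left out, 1705 genes were called, but only 5 of the 10 lineage genes were tested, of which 2 (Irf8 and Cd209a) were lower; fewer genes tested accounts for that count. With 1 array left out, 4 to 5 of the 10 lineage genes, 14 to 22 of the 81 partner genes lower and 2 to 5 higher were called, against 5, 18 and 6, and 1216 to 1839 of all genes against 1917 (1216 without stabilized replicate 1, 1235 without knockout replicate 3). In the fit over all probe sets 2 partner genes were higher, and the cause was not tested. With 2 arrays per group, the arrays with Y-linked genes high gave 354 called genes, 0 lineage genes and 6 lower and 0 higher partner genes, and those with Xist high gave 670 called genes, 4 lineage genes and 0 higher partner genes; fewer samples enter these fits. Signs turned within a pattern for Zbtb46 (-0.057) and Siglech (0.011) with Y-linked genes high and for Batf3 (0.071) and Itgax (-0.072) with Xist high, and after repeated quantile normalization for Itgax (-0.042) and Tcf4 (-0.015). Zbtb46 ranged from -0.013 to 0.067 and Itgax from -0.079 to 0.071 with 1 array left out.

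With the replicate block 1828 genes were called, and the same 5 lineage genes. Nothing in the sources says that the numbers pair the mice, and the block changed no call of the 10. In the exact two-sided permutation test over 70 splits, the 5 called genes each had p = 0.029, the smallest this design can give, and Fscn1 had p = 0.057. Of the 10 probe sets, 5 lay below the median level of all genes, and their signal over background was not measured. These were the called genes Clec9a, Itgae and Flt3, and Siglech and Batf3, which did not pass.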

Other observations

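Itgae varied very little among the 4 stabilized arrays, with an SD of 0.0086 against 0.20 in knockout arrays. Only 16 of 19937 genes had a smaller SD than Itgae among the stabilized arrays. Cd209a showed the same contrast less sharply, with SDs of 0.049 and 0.38, the latter at the 99.5th percentile of all genes in knockout lungs.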
